A study of Mus musculus with 8 samples.

Results

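The CYP2 and CYP3 families of cytochrome P450 enzymes were followed in liver RNA of male C57BL/6J mice given sudachitin or vehicle. Members were all genes whose symbol is Cyp2 or Cyp3 followed by subfamily letters and a number, with pseudogenes left out, which gave 56 of the 55421 transcripts in the deposited tables, in 15 subfamilies. Each of the 56 symbols had 1 row. Of these, 36 carried enough counts to be tested, 30 averaged at least 1 FPKM (fragments scaled to exon length and library size) and 4 had no count in any library.

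Bulk liver RNA was sequenced from 8 mice in 4 groups of 2. The sudachitin ZT18 and sudachitin ZT6 groups had received the polymethoxyflavone sudachitin by gavage every other day at 100 mg/kg, and the control ZT18 and control ZT6 groups PBS vehicle by the same route. Zeitgeber time (ZT) counts hours from lights on, so ZT18 lies in the night and ZT6 in the day. All mice, controls included, ate a diet with 45% of its calories from fat, arrived at 4 weeks of age, were acclimated for 4 weeks and were sampled at 30 weeks. Gavage was given between ZT8 and ZT10, in the light phase. Titles name mice, so each library was read as the liver of 1 mouse.

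Cytochromes P450 are haem enzymes of the endoplasmic reticulum that insert an oxygen atom into their substrates, with electrons passed on by the reductase Por. In liver the CYP2 and CYP3 families oxidise drugs, plant compounds, steroids and fatty acids. Many are induced when the nuclear receptors CAR (gene Nr1i3) or PXR (gene Nr1i2) sense a foreign compound, and in mice the pulsatile growth hormone of males and the more continuous growth hormone of females set sex-specific levels of several of them. The circadian factor DBP and its relatives are known regulators of some members, Cyp2a4 and Cyp2a5 among them.

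Most of the genes lie in clusters, with 15 members on chromosome 7 (Cyp2a, Cyp2b and several single-gene subfamilies), 15 on chromosome 19 (Cyp2c), 8 on chromosome 15 (Cyp2d) and 8 on chromosome 4 (Cyp2j). On chromosome 7, Cyp2e1 (from base 140763739) and Cyp2r1 (from base 114550166) lie far from the cluster of the others. The promoters of 5 members of the chromosome 7 cluster are shown. Cyp2b10 was the one member that passed the test between times. In scaled counts it was highest in the same single liver as Cyp2b9, Cyp2b13, Cyp2a4 and Cyp2a5. Other tested members of the cluster, Cyp2a12, Cyp2a22 and Cyp2f2, were also highest in that liver and are not shown. The windows run from 250 bases before to 50 bases after the RefSeq start on GRCm38.p6, all on the plus strand: chr7:25897408-25897707 for Cyp2b10, chr7:26173159-26173458 for Cyp2b9, chr7:26061245-26061544 for Cyp2b13, chr7:26306942-26307241 for Cyp2a4 and chr7:26835089-26835388 for Cyp2a5. Capitals mark TTGCATAA, the other strand of TTATGCAA, a sequence of the kind that DBP-related and C/EBP factors can bind. The RefSeq start used for Cyp2b10 lies 38 bases from the start in the deposited table.
Cyp2b10: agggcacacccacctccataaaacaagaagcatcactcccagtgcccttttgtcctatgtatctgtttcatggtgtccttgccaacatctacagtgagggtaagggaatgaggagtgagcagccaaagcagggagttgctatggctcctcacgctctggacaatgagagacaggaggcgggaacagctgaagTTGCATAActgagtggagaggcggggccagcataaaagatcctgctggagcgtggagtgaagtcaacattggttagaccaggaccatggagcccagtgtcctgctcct
Cyp2b9: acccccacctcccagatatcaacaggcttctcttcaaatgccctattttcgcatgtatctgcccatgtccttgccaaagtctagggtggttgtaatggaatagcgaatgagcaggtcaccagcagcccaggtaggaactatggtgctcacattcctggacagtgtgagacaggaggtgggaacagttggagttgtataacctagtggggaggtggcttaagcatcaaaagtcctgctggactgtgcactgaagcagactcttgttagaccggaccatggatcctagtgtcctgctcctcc
Cyp2b13: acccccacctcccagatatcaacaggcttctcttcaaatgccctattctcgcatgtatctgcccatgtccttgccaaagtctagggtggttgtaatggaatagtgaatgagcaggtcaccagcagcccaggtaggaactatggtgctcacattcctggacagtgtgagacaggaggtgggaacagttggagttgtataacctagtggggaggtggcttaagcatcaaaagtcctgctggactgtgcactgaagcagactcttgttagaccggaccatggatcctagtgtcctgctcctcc
Cyp2a4: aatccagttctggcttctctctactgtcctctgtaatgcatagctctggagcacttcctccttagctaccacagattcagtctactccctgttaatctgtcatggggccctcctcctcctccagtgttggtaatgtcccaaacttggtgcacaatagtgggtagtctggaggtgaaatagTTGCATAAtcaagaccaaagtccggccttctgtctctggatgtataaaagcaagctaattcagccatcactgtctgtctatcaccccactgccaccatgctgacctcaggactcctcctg
Cyp2a5: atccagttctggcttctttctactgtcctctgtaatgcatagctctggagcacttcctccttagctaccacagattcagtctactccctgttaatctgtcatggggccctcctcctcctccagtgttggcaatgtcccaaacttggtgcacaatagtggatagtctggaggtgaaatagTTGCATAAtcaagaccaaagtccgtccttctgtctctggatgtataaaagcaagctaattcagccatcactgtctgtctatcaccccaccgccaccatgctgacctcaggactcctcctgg

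The motif TTATGCAA, searched on both strands, was found in 5 of the 48 members that had a RefSeq promoter, namely Cyp2a4, Cyp2a5, Cyp2b10, Cyp2b19 and Cyp2b23, against 0.743% of all 32851 promoters of that length. Its first base stands at -58 from the start in Cyp2b10, at -70 in Cyp2a4 and at -71 in Cyp2a5. The Cyp2b9 and Cyp2b13 windows do not hold these letters. They differ from each other at few positions, with 99.3% identity, and Cyp2a4 and Cyp2a5 share 97.7%, while Cyp2b10 shares 72.9% with either Cyp2b9 or Cyp2b13. Of the other motifs searched on both strands, TTATGTAA was in 0 of the 48 member promoters and in 308 of all 32851 (0.938%). CACGTG was in 1 of the 48 (Cyp2j6) and in 2349 of all (7.15%). AGGTCA was in 17 of the 48 and in 5340 of all (16.3%). TTCNNNGAA was in 2 of the 48 and in 2726 of all (8.3%). No motif searched contains another, and a match describes the window only.

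Exon counts per library ran between 13914116 and 17759630.5, and 14506 transcripts passed the filter on low counts. The hepatocyte markers Alb, Ttr, Apoa1, Apoc3, Serpina1a and Fgb summed to between 20989 and 26697 FPKM in every library, while of the 4 pancreas markers Prss1, Cpa1 and Pnlip were at 0 in all and Cela2a was between 0.114 and 0.458 FPKM. Control ZT18 replicate 1 stood apart from the other 7 libraries. It held the most extreme value of the 8, high or low, for 38.2% of all tested transcripts, against 17.4% to 27.7% for each of the others. The 2 control ZT18 livers also differed from each other more than the 2 of any other group, at 56.8 against 16.3 to 26.4 as a chi-square divided by its degrees of freedom. Whether the label of this library fits its animal cannot be told from the files, and each comparison with the control ZT18 group carries that limit. Differences that rest on this liver are given with and without it where a value is discussed. In bulk tissue, fewer cells of a type and less RNA per cell cannot be told apart.

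The CYP2 and CYP3 genes summed to between 3321 and 4359 FPKM in a liver. The sum was 3656 and 3774 FPKM in sudachitin ZT18 livers, 3889 and 3835 FPKM in sudachitin ZT6 livers, 3921 and 3321 FPKM in control ZT18 livers and 3732 and 4359 FPKM in control ZT6 livers. All groups overlapped except that both sudachitin ZT6 sums lay above both sudachitin ZT18 sums. A single gene, Cyp2e1, supplied 37.4% of the total, followed by the Cyp2d subfamily with 23.8%, Cyp2c with 17.2%, Cyp3a with 7.13%, Cyp2a with 5.33%, Cyp2f with 5.03% and Cyp2j with 3.55%. The Cyp2b subfamily supplied 0.311%.

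**Figure D1:**
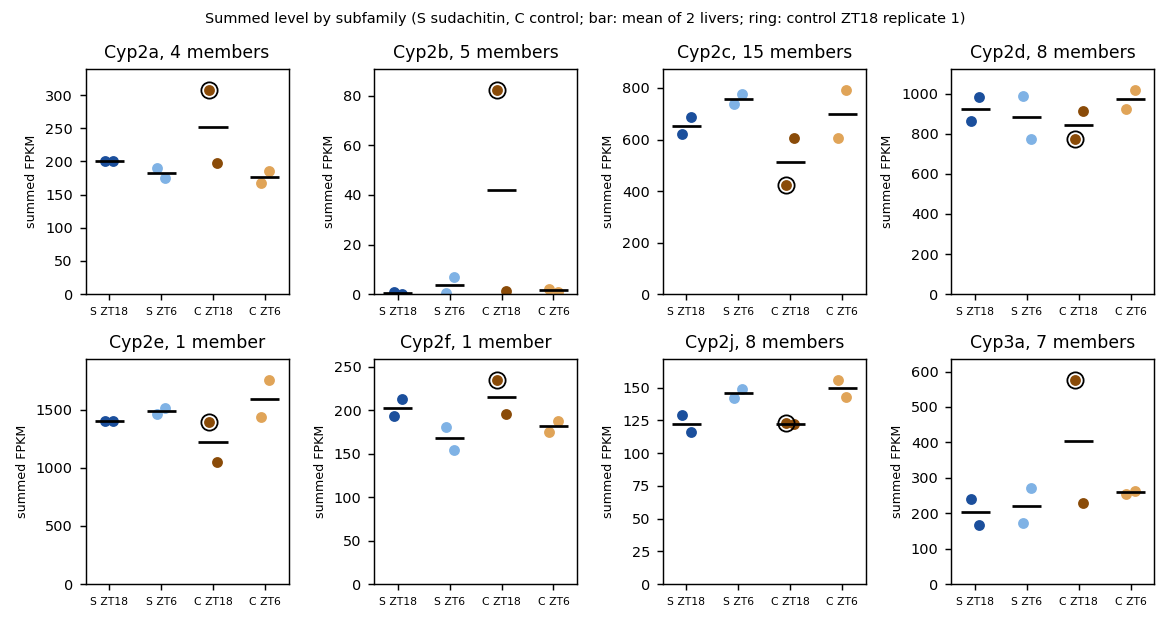
Summed FPKM of each larger subfamily (vertical axes from 0) in the 4 groups, with 1 point per liver, the mean of 2 livers as a bar and a ring around control ZT18 replicate 1. The ringed liver is the highest of the 8 for Cyp2a (308), Cyp2b (82.4), Cyp2f (235) and Cyp3a (577) and the lowest for Cyp2c (422) and Cyp2d (775).

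Cyp2e1, which oxidises ethanol, acetaminophen and small solvents, was at 1401 and 1401 FPKM in sudachitin ZT18 livers, 1462 and 1517 FPKM in sudachitin ZT6 livers, 1393 and 1048 FPKM in control ZT18 livers and 1432 and 1757 FPKM in control ZT6 livers. At each time the spread between 2 control mice was wider than the distance between the treatment means.

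The Cyp2d subfamily had 8 members, 6 of them tested, and 3 genes carried most of its level. Cyp2d9, a male-predominant steroid hydroxylase of mouse liver, was at 327 and 384 FPKM in sudachitin ZT18 livers, 381 and 227 FPKM in sudachitin ZT6 livers, 201 and 349.6 FPKM in control ZT18 livers and 363 and 394 FPKM in control ZT6 livers. The 2 low values came from 1 liver of each of 2 different groups, so no group stood apart. Cyp2d26 and Cyp2d10 averaged 263 and 231 FPKM, and Cyp2d40 and Cyp2d22 averaged 43.0 and 40.5 FPKM. Cyp2d12 averaged 0.179 FPKM, and Cyp2d11 and Cyp2d34 were too low to test.

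Cyp2c was the largest subfamily, with 15 members of which 13 were tested. It is best known for the epoxidation of arachidonic and linoleic acid. Cyp2c29, its most abundant member, was at 165 and 119 FPKM in sudachitin ZT18 livers, 183 and 215 FPKM in sudachitin ZT6 livers, 111 and 151 FPKM in control ZT18 livers and 164 and 214 FPKM in control ZT6 livers. The ZT6 and ZT18 livers did not overlap within either treatment, but they did overlap once all 8 were compared. Cyp2c50 averaged 141 FPKM, and Cyp2c70, which makes the muricholic acids of mouse bile, averaged 88.5 FPKM. Cyp2c23, Cyp2c37, Cyp2c67, Cyp2c54, Cyp2c68 and Cyp2c38 averaged between 8.76 and 60.7 FPKM, and Cyp2c39, Cyp2c40, Cyp2c55 and Cyp2c69 averaged under 1 FPKM. Cyp2c65 had 1.5 counts in all and Cyp2c66 none.

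The Cyp2a genes included Cyp2a5, which hydroxylates coumarin and nicotine, and Cyp2a12, which acts on steroids and bile acids. Cyp2a12 was at 131 and 128 FPKM in sudachitin ZT18 livers, 122 and 114 FPKM in sudachitin ZT6 livers, 149 and 130.2 FPKM in control ZT18 livers and 118 and 125 FPKM in control ZT6 livers. Cyp2a5 was at 68.5 and 72.4 FPKM in sudachitin ZT18 livers, 67.2 and 59.7 FPKM in sudachitin ZT6 livers, 133 and 65.2 FPKM in control ZT18 livers and 49.3 and 58.7 FPKM in control ZT6 livers. For Cyp2a12 all 4 ZT18 livers lay above all 4 ZT6 livers. For Cyp2a5 this held in scaled counts, while the FPKM of one control ZT18 liver lay below one sudachitin ZT6 value.

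Cyp3a11, the main PXR-inducible Cyp3a enzyme of mouse liver, was at 134 and 71.0 FPKM in sudachitin ZT18 livers, 61.0 and 118 FPKM in sudachitin ZT6 livers, 414 and 117 FPKM in control ZT18 livers and 153 and 131 FPKM in control ZT6 livers. The 414 FPKM of control ZT18 replicate 1 stood far above the other 7 livers, and at ZT6 both sudachitin livers lay below both control livers. Cyp3a13 was at 34.4 and 21.6 FPKM in sudachitin ZT18 livers, 19.9 and 20.7 FPKM in sudachitin ZT6 livers, 24.9 and 19.9 FPKM in control ZT18 livers and 17.2 and 18.5 FPKM in control ZT6 livers. Within each treatment both ZT18 livers lay above both ZT6 livers. Cyp3a25 averaged 96.4 FPKM and Cyp3a59 3.35 FPKM, while Cyp3a16, Cyp3a44 and Cyp3a57 were too low to test.

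Among the smaller subfamilies, Cyp2f2, which activates naphthalene, was at 193 and 213 FPKM in sudachitin ZT18 livers, 181 and 154 FPKM in sudachitin ZT6 livers, 235 and 196 FPKM in control ZT18 livers and 175 and 188 FPKM in control ZT6 livers. Cyp2j5, an arachidonic acid epoxygenase, was at 118 and 104 FPKM in sudachitin ZT18 livers, 129.8 and 137 FPKM in sudachitin ZT6 livers, 112 and 109.9 FPKM in control ZT18 livers and 143 and 131 FPKM in control ZT6 livers. The ZT18 livers were the higher ones for Cyp2f2 and the lower ones for Cyp2j5, without overlap in either case. Cyp2r1, which hydroxylates vitamin D, was at 3.30 and 3.57 FPKM in sudachitin ZT18 livers, 4.57 and 5.29 FPKM in sudachitin ZT6 livers, 3.2 and 3.65 FPKM in control ZT18 livers and 4.44 and 4.15 FPKM in control ZT6 livers. Cyp2u1, a fatty acid hydroxylase, was at 3.51 and 4.64 FPKM in sudachitin ZT18 livers, 6.62 and 4.41 FPKM in sudachitin ZT6 livers, 2.92 and 6.28 FPKM in control ZT18 livers and 5.91 and 6.44 FPKM in control ZT6 livers. Cyp2r1 was lower in all 4 ZT18 livers than in any ZT6 liver, and Cyp2u1 overlapped between all groups except the 2 control ZT6 livers and the sudachitin ZT18 livers. Cyp2j6 and Cyp2j9 averaged 10.9 and 1.19 FPKM.

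The 20 members that were not tested had 143.5 counts or fewer over all libraries together. Cyp2b13 had the most, and the next was Cyp2d11 with 41.5. Cyp2c66, Cyp2j7, Cyp2j12 and Cyp2w1 had no count, which allows up to 3 counts in a library, or 0.169 to 0.216 CPM (counts scaled to library size) as far as counting error goes.

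**Figure D2:**
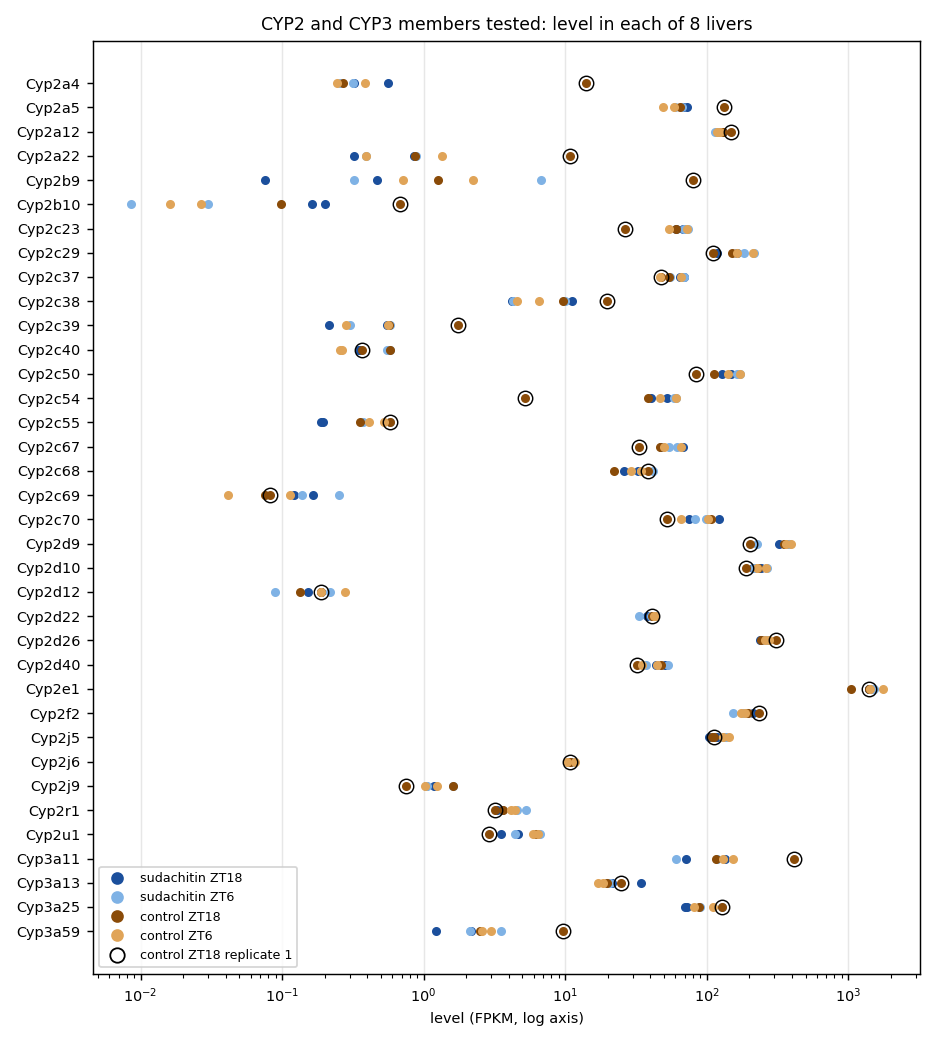
Level of each of the 36 tested members (FPKM, log axis) in each of the 8 livers, coloured by group, with a ring around control ZT18 replicate 1. Levels run over 5 orders of magnitude between Cyp2b10 and Cyp2e1, and the ringed liver lies far to the right for Cyp2a4, Cyp2a22, Cyp2b9 and Cyp2b10 and far to the left for Cyp2c54.

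Time of day was the first comparison of the design. Over both treatments, Cyp2b10, the classic target of CAR in mouse liver, rose at ZT18 (gene at chr7:25897620-25926624 on GRCm38, plus strand), and it was the only one of the 36 tested members to pass, or 2.78%, against 3.68% of all tested transcripts and 1.86% called higher. Its level was 0.202 and 0.162 FPKM in sudachitin ZT18 livers, 0.0299 and 0.0085 FPKM in sudachitin ZT6 livers, 0.677 and 0.0984 FPKM in control ZT18 livers and 0.0266 and 0.0162 FPKM in control ZT6 livers. These rest on 14.5 and 12 counts in sudachitin ZT18 livers, 2 and 0.5 counts in sudachitin ZT6 livers, 48 and 6 counts in control ZT18 livers and 1.5 and 1 counts in control ZT6 livers. All 4 ZT18 livers lay above all 4 ZT6 livers within each treatment and across them. The log2 difference was 3.44 with an SE of 0.705 (edgeR quasi-likelihood test, Benjamini-Hochberg adjusted p = 0.034). Summed over livers the counts were 80.5 at ZT18 and 5 at ZT6, a ratio of 14.7 after scaling (exact 95% interval 6.07 to 46.6, counting error only). Without control ZT18 replicate 1 the log2 difference was 2.54 (edgeR adjusted p = 0.023), but leaving out any one of 6 other libraries ended the call (edgeR adjusted p between 0.051 and 0.11). Even the highest level was under 1 FPKM. The summed cholangiocyte markers Krt19, Krt7, Epcam, Sox9 and Spp1 were at 17.8 and 8.28 FPKM in sudachitin ZT18 livers, 5.94 and 10.7 FPKM in sudachitin ZT6 livers, 24.3 and 12.2 FPKM in control ZT18 livers and 8.38 and 7.76 FPKM in control ZT6 livers. These sums overlapped between times, 5 of the 5 markers had a log2 difference above 0 with a median of 0.56, none was called, and their part in the result was not tested.

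Within sudachitin-treated mice the Cyp2b10 difference was 2.94 (SE 1.07, edgeR adjusted p = 0.32), and within controls it was 3.85 (SE 0.997, edgeR adjusted p = 0.17), against 1.94 (edgeR adjusted p = 0.43) without control ZT18 replicate 1. Neither passed with 2 livers on each side. The difference of those differences was not called either.

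Other members ordered by time without passing the threshold. In scaled CPM, in which all counts of members without overlap are given, the ZT18 livers lay above the ZT6 livers for 5 members, Cyp2a12, Cyp2a5, Cyp2b10, Cyp2f2 and Cyp3a13, which is 13.9% against 5.99% of all tested transcripts, and below them for 2 members, Cyp2j5 and Cyp2r1, or 5.56% against 7.02%. In FPKM, Cyp2a5 and Cyp3a13 overlapped by 1 control ZT18 liver. The fold sizes of the others than Cyp2b10 were small. Cyp2r1 averaged 3.43 ± 0.216 FPKM at ZT18 and 4.61 ± 0.486 FPKM at ZT6 (SD, n = 4 each), a difference of -0.37 on the log2 scale (SE 0.105, edgeR adjusted p = 0.093). Cyp3a13 averaged 25.2 ± 6.49 FPKM at ZT18 and 19.1 ± 1.56 FPKM at ZT6 (SD, n = 4 each), a difference of 0.44 on the log2 scale (SE 0.135, edgeR adjusted p = 0.11). Cyp2f2 averaged 209 ± 19.3 FPKM at ZT18 and 175 ± 14.8 FPKM at ZT6 (SD, n = 4 each), a difference of 0.31 on the log2 scale (SE 0.0947, edgeR adjusted p = 0.11). At an unadjusted p under 0.05 there were 10 members, or 27.8% against 20.4% of all. DESeq2 called 3 of 36 members, Cyp2c29, Cyp2f2 and Cyp3a13, against 950 of the 14506 transcripts, but gave no adjusted p for Cyp2b10. Without control ZT18 replicate 1 there were 12 members of 37 tested at an unadjusted p under 0.05, or 32.4% against 24.8% of all. The median log2 difference was 0.03 over the 36 members and 0.02 over all tested transcripts.

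In sudachitin-treated mice alone, edgeR called no member between ZT18 and ZT6, against 0.186% of all transcripts. At an unadjusted edgeR p under 0.05 there were 6 members, or 16.7% against 12.6% of all. DESeq2 called no member there, against 274 of the 14506 transcripts. Both ZT18 livers lay above both ZT6 livers for 6 members, or 16.7% against 23.5% of all, and below them for 8, or 22.2% against 22.3%. The 3 members with the smallest p were Cyp2c55, Cyp2r1, whose log2 difference was -0.43 (SE 0.155, edgeR adjusted p = 0.31), and Cyp3a13, with 0.54 (SE 0.196, edgeR adjusted p = 0.32). Cyp2c55, best known from the intestine, was at 0.194 and 0.188 FPKM in sudachitin ZT18 livers, 0.373 and 0.579 FPKM in sudachitin ZT6 livers, 0.576 and 0.354 FPKM in control ZT18 livers and 0.527 and 0.412 FPKM in control ZT6 livers. The 2 sudachitin ZT18 livers were the lowest of the 8, and the log2 difference between times in treated mice was -1.18 (SE 0.374, edgeR adjusted p = 0.25). In controls alone, edgeR called no member, against 0.524% of all transcripts, with 10 members at an unadjusted p under 0.05 (27.8% against 12.9% of all). DESeq2 called 2 of 36 members there, Cyp2a5 and Cyp2c50, against 264 of the 14506 transcripts. Both control ZT18 livers lay above both control ZT6 livers for 8 members, or 22.2% against 21.3% of all, and below them for 7, or 19.4% against 21.1%. Without control ZT18 replicate 1, 3 of 37 members had an unadjusted p under 0.05 in controls, or 8.11% against 12.8% of all. Cyp2b10, Cyp2a5 and Cyp2a4 had the smallest p there, and the values of all 3 rested in part on that liver. The log2 difference of Cyp2a5 was 0.89 (SE 0.26, edgeR adjusted p = 0.22) with that liver and 0.35 without it, and that of Cyp2a4 was 4.43 (SE 1.33, edgeR adjusted p = 0.23) with it and -0.19 without it.

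**Figure D3:**
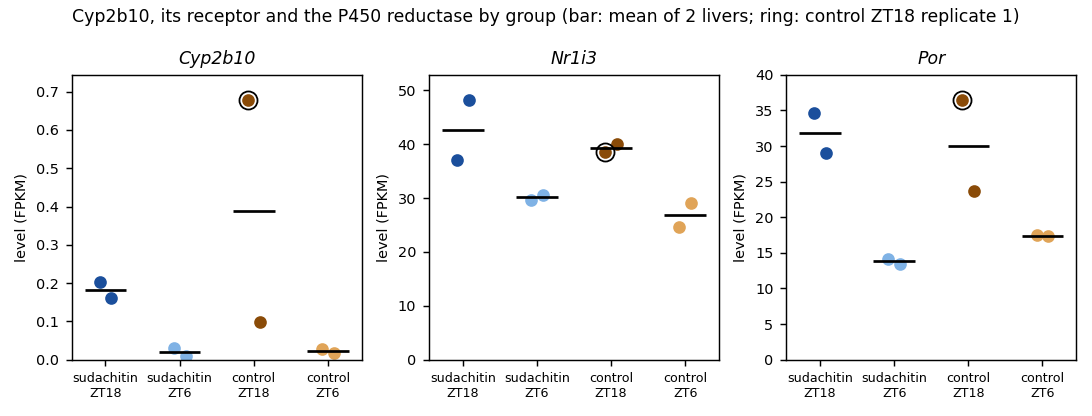
Level (FPKM, axes from 0) of Cyp2b10, of the CAR gene Nr1i3 and of the P450 reductase Por by group, with 1 point per liver, bars for means of 2 and a ring around control ZT18 replicate 1. For each of the 3 genes all 4 ZT18 livers lie above all 4 ZT6 livers.

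The partners of the P450 enzymes were compared at the same times. Por, the reductase that supplies electrons to every microsomal P450, rose at ZT18 over both treatments, by 1.04 on the log2 scale (SE 0.142, edgeR adjusted p = 0.0073). It was at 34.7 and 29.0 FPKM in sudachitin ZT18 livers, 14.2 and 13.4 FPKM in sudachitin ZT6 livers, 36.4 and 23.7 FPKM in control ZT18 livers and 17.5 and 17.3 FPKM in control ZT6 livers. Nr1i3, which encodes CAR, rose as well, by 0.58 on the log2 scale (SE 0.106, edgeR adjusted p = 0.023), with 37.1 and 48.1 FPKM in sudachitin ZT18 livers, 29.7 and 30.5 FPKM in sudachitin ZT6 livers, 38.6 and 40.0 FPKM in control ZT18 livers and 24.7 and 29.0 FPKM in control ZT6 livers. Neither gene overlapped between times. Without control ZT18 replicate 1 the log2 differences were 0.98 for Por and 0.60 for Nr1i3. The Nr1i3 call was lost on leaving out any of the 4 ZT6 livers or control ZT18 replicate 2.

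Of the 6 electron donors and membrane partners 1 was called higher at ZT18 and none lower. Of the 12 genes of haem synthesis and breakdown none was called, although Alas1, the rate-limiting enzyme of haem synthesis, had a difference of 1.45 on the log2 scale (SE 0.493, edgeR adjusted p = 0.14). Of 20 tested nuclear receptors and other regulators, 2 rose and 1 fell. Nfil3, a clock-controlled repressor, rose by 0.74 (SE 0.147, edgeR adjusted p = 0.03), and Dbp fell by 2.14 (SE 0.203, edgeR adjusted p = 0.0017), both on the log2 scale. The Nfil3 call was lost on leaving out any one of 6 libraries (edgeR adjusted p between 0.061 and 0.1). Of 15 other CAR and PXR target genes, which encode transporters and conjugating enzymes, none was called between times, with a median log2 difference of 0.16, against -0.07 without control ZT18 replicate 1. Among zonation markers, none of 10 pericentral genes and 1 of 10 periportal genes was called, the histidine-degrading enzyme Hal, which fell by 0.52 on the log2 scale (SE 0.108, edgeR adjusted p = 0.036). The Hal call was lost on leaving out any one of 7 libraries (edgeR adjusted p between 0.054 and 0.1), all but control ZT18 replicate 1.

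Treatment was the second comparison. At ZT18, edgeR called no member between sudachitin and control livers, against 0.0138% of all transcripts. At an unadjusted p under 0.05 there were 11 members, or 30.6% against 6.51% of all, and DESeq2 called none. Leaving out control ZT18 replicate 1 reduced this to 2 of 37 members, or 5.41% against 3.61% of all. Both sudachitin livers lay above both control livers for 7 members, or 19.4% against 15.3% of all, and below them for 7 others, or 19.4% against 15.5%. The median log2 difference was 0.01 over the members and 0.00 over all tested transcripts. The 3 with the smallest p were Cyp2b9, Cyp3a59 and Cyp2c55. Cyp2b9, a female-predominant enzyme of mouse liver, was at 0.470 and 0.0759 FPKM in sudachitin ZT18 livers, 0.321 and 6.73 FPKM in sudachitin ZT6 livers, 79.8 and 1.26 FPKM in control ZT18 livers and 2.22 and 0.720 FPKM in control ZT6 livers. The sudachitin ZT18 livers lay below the control ZT18 livers, and the log2 difference was -7.09 (SE 2.02, edgeR adjusted p = 0.69), against -2.20 without control ZT18 replicate 1. Cyp3a59 was at 2.15 and 1.22 FPKM in sudachitin ZT18 livers, 2.14 and 3.53 FPKM in sudachitin ZT6 livers, 9.67 and 2.52 FPKM in control ZT18 livers and 2.6 and 3.0 FPKM in control ZT6 livers. It was the highest in control ZT18 replicate 1 and the lowest in a sudachitin ZT18 liver. Its log2 difference at ZT18 was -1.77 (SE 0.527, edgeR adjusted p = 0.71), against -0.58 without that liver. For Cyp2c55 the difference was -1.19 (SE 0.373, edgeR adjusted p = 0.71), against -0.86 without it. In the same comparison, genes outside the family were also off centre, with 2 of 15 other CAR and PXR targets above 0 and a median log2 difference of -0.64, 14 of 14 male-biased genes above 0 and a median of 1.18, and 0 of 5 female-biased genes above 0 and a median of -1.86, although none of these genes was called. When that liver was left out the counts above 0 were 6 of 15, 13 of 14 and 1 of 5 for the CAR and PXR targets, the male-biased and the female-biased genes, with medians of -0.07, 0.49 and -0.65 on the log2 scale. Their part in the members' values was not tested.

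At ZT6, the groups do not include the liver that stood apart, although the estimate of the spread draws on all 8 libraries. Here edgeR called no member and 0.0% of all transcripts, with 1 member at an unadjusted p under 0.05 (2.78% against 2.12% of all) and none called by DESeq2. No member was called without control ZT18 replicate 1 either, where 3 transcripts passed, or from the ZT6 libraries alone, where 10 passed. The member with p under 0.05 was Cyp2c40, an arachidonic acid hydroxylase known from the mouse intestine. It was at 0.349 and 0.352 FPKM in sudachitin ZT18 livers, 0.550 and 0.579 FPKM in sudachitin ZT6 livers, 0.368 and 0.576 FPKM in control ZT18 livers and 0.255 and 0.267 FPKM in control ZT6 livers. Both sudachitin ZT6 livers lay above both control ZT6 livers, and the log2 difference at ZT6 was 1.07 (SE 0.349, edgeR adjusted p = 1). Cyp2c69 was at 0.122 and 0.165 FPKM in sudachitin ZT18 livers, 0.253 and 0.139 FPKM in sudachitin ZT6 livers, 0.0822 and 0.0764 FPKM in control ZT18 livers and 0.0413 and 0.113 FPKM in control ZT6 livers, a difference at ZT6 of 1.35 on the log2 scale (SE 0.62, edgeR adjusted p = 1). Leaving out 1 library moved the Cyp2c69 difference to between 0.83 without control ZT6 replicate 1 and 2.23 without control ZT6 replicate 2. It rests on few fragments, 7 to 14.5 counts in the sudachitin ZT6 livers and 2 to 6 counts in the control ZT6 livers. Cyp2d22 was at 38.2 and 41.7 FPKM in sudachitin ZT18 livers, 40.2 and 33.5 FPKM in sudachitin ZT6 livers, 41.1 and 43.5 FPKM in control ZT18 livers and 43.5 and 42.5 FPKM in control ZT6 livers, a difference at ZT6 of -0.22 on the log2 scale (SE 0.144, edgeR adjusted p = 1). Both sudachitin ZT6 livers lay above both control ZT6 livers for 6 members, or 16.7% against 15.4% of all, and below them for 2, or 5.56% against 16.3%. Over the 36 tested members the log2 differences at ZT6 ran between -0.67 and 1.35, with a median of 0.04 against -0.01 over all transcripts.

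Over both times edgeR called no member between sudachitin and control, against 0.0207% of all transcripts, with 5 members at an unadjusted p under 0.05 (13.9% against 4.41% of all) and none called by DESeq2. The count was 2 of 37 without control ZT18 replicate 1, or 5.41% against 4.17% of all. Cyp2c69 was the single member in which all 4 sudachitin livers lay above all 4 control livers, or 2.78% against 0.958% of all, and 0 members lay below them, against 0.869%. Its log2 difference was 1.16 (SE 0.415, edgeR adjusted p = 1). Cyp3a11 had a difference of -0.98 on the log2 scale (SE 0.37, edgeR adjusted p = 1), and -0.48 without control ZT18 replicate 1. Cyp2a4 had a difference of -2.64 on the log2 scale (SE 1.17, edgeR adjusted p = 1) with that liver and 0.21 without it. The median over the 36 members was 0.01 against 0.00 over all tested transcripts.

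**Figure D4:**
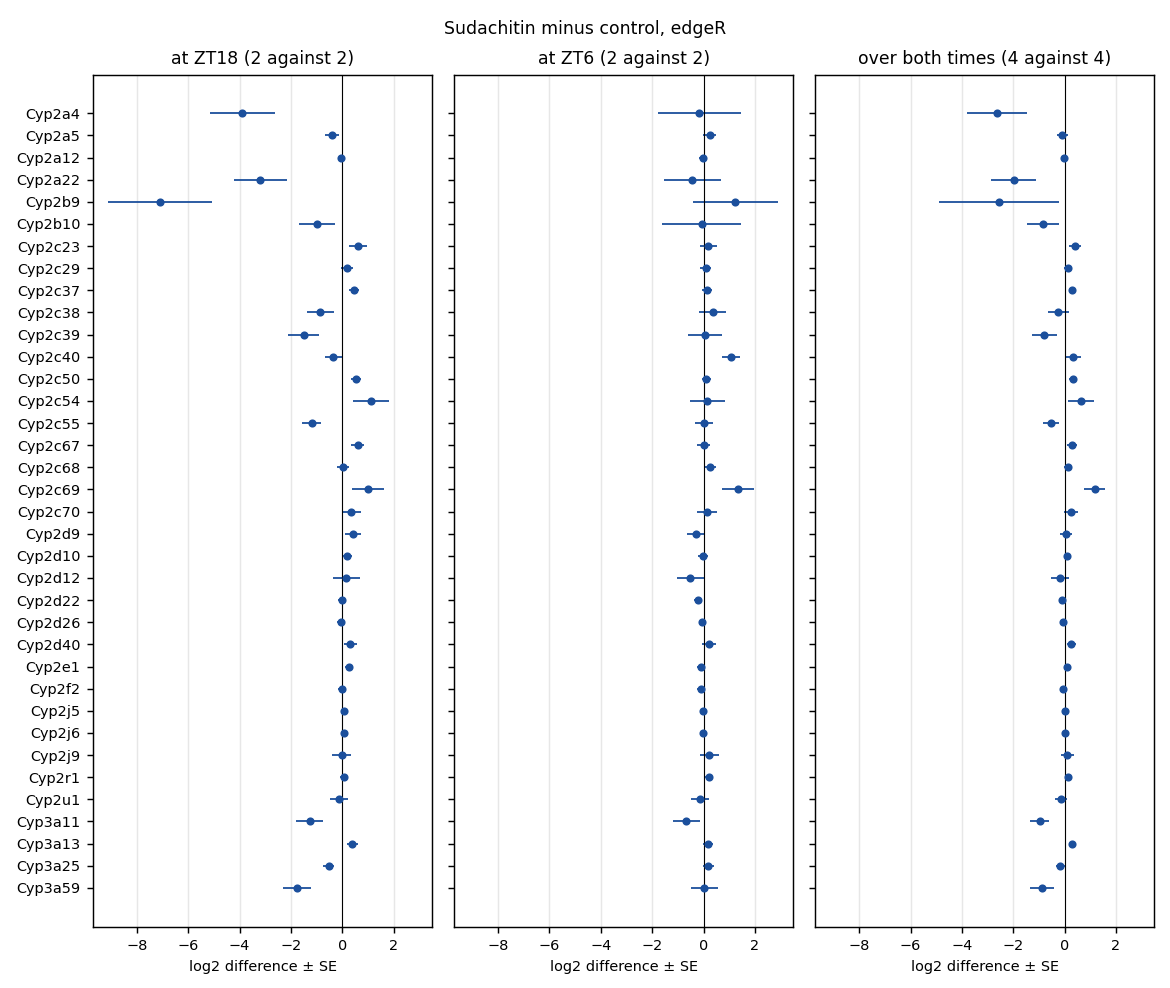
Log2 difference of sudachitin minus control with its SE (edgeR) for each tested member at ZT18, at ZT6 and over both times, on 1 shared axis. Differences reach -7.09 for Cyp2b9 and -3.89 for Cyp2a4 at ZT18, where the control group holds control ZT18 replicate 1, and run between -0.67 and 1.35 at ZT6.

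The interaction of treatment and time addressed whether the day-night difference depended on sudachitin. edgeR called no member and 0.0% of all transcripts, with 5 members at an unadjusted p under 0.05 (13.9% against 3.78% of all) and none called by DESeq2. When control ZT18 replicate 1 was left out it was 2 of 37, or 5.41% against 3.16% of all. Cyp2b9 had the largest interaction, -8.33 on the log2 scale (SE 2.59, edgeR adjusted p = 1), which was -3.45 without control ZT18 replicate 1. Cyp2c40 had one of -1.42 (SE 0.484, edgeR adjusted p = 1), and -1.75 without that liver. Cyp3a59 had one of -1.79 (SE 0.741, edgeR adjusted p = 1), and -0.60 without it.

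Control ZT18 replicate 1 was the liver in which the members differed most from the rest. In scaled CPM its value was the highest or the lowest for 26 of the 36 tested members, or 72.2%, against 38.2% of all tested transcripts. It lay above the other 7 livers by a factor of 2 or more for 7 members, or 19.4% against 0.689% of all, and below them by that factor for 2 members, or 5.56% against 0.91%. For the other libraries there was 1 such case among members, Cyp2b9 in sudachitin ZT18 replicate 2, on the low side, against 0.2% of all transcripts for that library.

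The members farthest above the other livers were Cyp2b9, Cyp2a4, Cyp2b10 and Cyp2a22. Cyp2b9, a female-predominant gene, had 5535 counts there against 5.5 to 388 in the other livers, 107 times their median in scaled CPM. Cyp2b13, another female-predominant gene, which was not tested and is named after its values were seen, had 137.5 counts there against 0 to 2.5 elsewhere. Cyp2a4, a female-predominant steroid hydroxylase, was at 0.561 and 0.320 FPKM in sudachitin ZT18 livers, 0.256 and 0.319 FPKM in sudachitin ZT6 livers, 14.0 and 0.271 FPKM in control ZT18 livers and 0.244 and 0.384 FPKM in control ZT6 livers, so that 1 liver was at 43.5 times the median of the rest. The same liver was high for Cyp2a22, with 0.855 and 0.324 FPKM in sudachitin ZT18 livers, 0.391 and 0.879 FPKM in sudachitin ZT6 livers, 10.8 and 0.866 FPKM in control ZT18 livers and 1.34 and 0.389 FPKM in control ZT6 livers. Cyp2b9 and Cyp2b13 are the pair whose promoters, shown above, differ least, while Cyp2a5, whose promoter nearly matches that of Cyp2a4, was at 1.91 times the median of the other livers. Female-predominant members were not all high there, with Cyp2c40 at 0.95 and Cyp2c69 at 0.588 times that median and Cyp3a16 and Cyp3a44 at 0.5 counts each.

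The CAR target Cyp2b10 was at 18.6 times the median of the other livers and the PXR target Cyp3a11 at 3.27 times, with 35839.5 counts against 4984.5 to 11733.5. Cyp3a59 was at 3.63 times. Cyp2c39, known to hydroxylate retinoic acid, was at 0.551 and 0.214 FPKM in sudachitin ZT18 livers, 0.30 and 0.582 FPKM in sudachitin ZT6 livers, 1.74 and 0.571 FPKM in control ZT18 livers and 0.560 and 0.282 FPKM in control ZT6 livers, or 3.02 times that median. Members known to respond to CAR were not all high, since Cyp2c29 was at 0.627 and Cyp2c37 at 0.708 times the median. In scaled CPM this liver was the lowest of the 8 for both, but for Cyp2c37 narrowly, at 179 against 180 in control ZT6 replicate 1. In FPKM it was not the lowest for Cyp2c37, at 47.6 against 46.5 in that ZT6 liver.

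A pair of epoxygenase genes were low in this liver. Cyp2c54, an epoxygenase of arachidonic and linoleic acid, was at 40.2 and 52.7 FPKM in sudachitin ZT18 livers, 60.7 and 58.9 FPKM in sudachitin ZT6 livers, 5.22 and 38.7 FPKM in control ZT18 livers and 46.7 and 61.2 FPKM in control ZT6 livers. That liver was at 0.0902 times the median of the others. Cyp2c23, a related epoxygenase, was at 61.0 and 68.0 FPKM in sudachitin ZT18 livers, 73.6 and 69.6 FPKM in sudachitin ZT6 livers, 26.5 and 60.4 FPKM in control ZT18 livers and 53.9 and 72.3 FPKM in control ZT6 livers, or 0.376 times. Cyp2e1, Cyp2j6, Cyp2d22 and Cyp2c40 lay inside the range of the other livers.

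**Figure D5:**
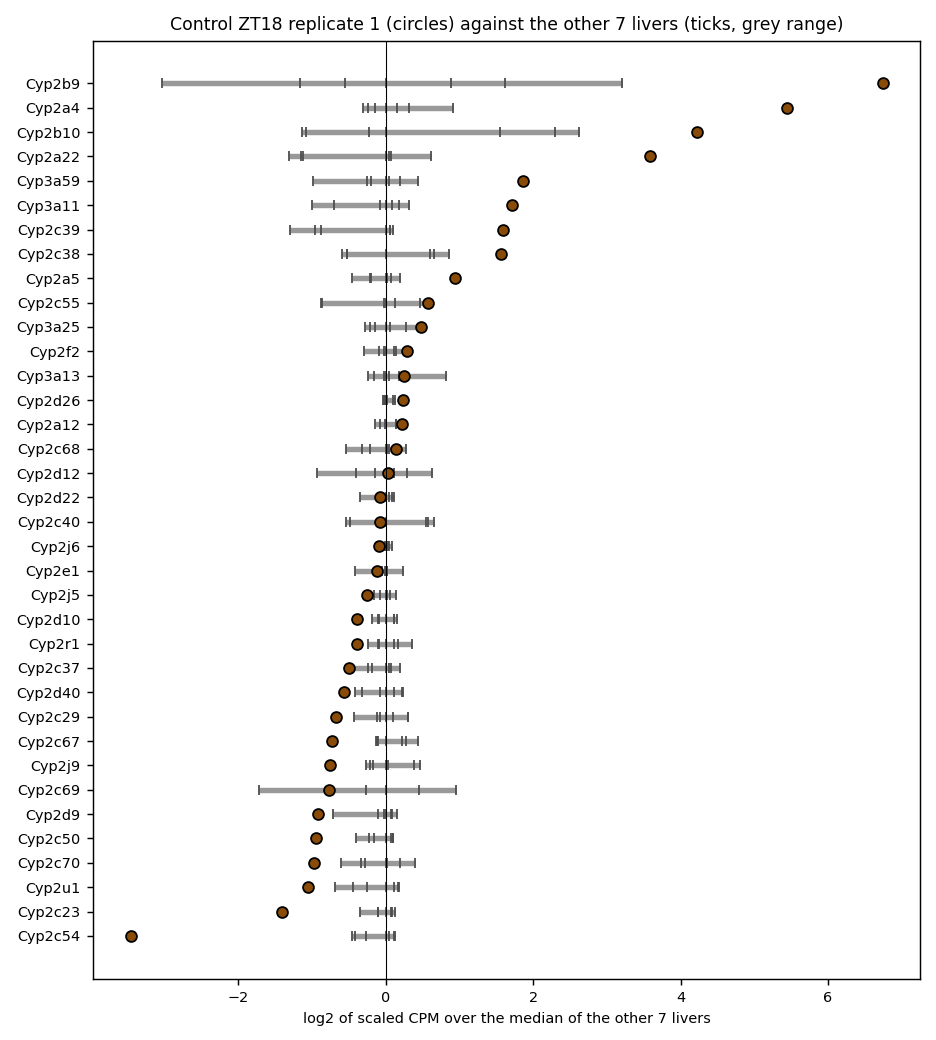
Scaled CPM of the 36 tested members in control ZT18 replicate 1 (circles) over the median of the other 7 livers (ticks, with their range in grey), on a log2 axis. Circles lie right of the grey range by a factor of 2 or more for Cyp2b9, Cyp2a4, Cyp2b10, Cyp2a22, Cyp3a59, Cyp3a11 and Cyp2c39 and left of it for Cyp2c54 and Cyp2c23.

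Genes outside the family also had their highest or lowest values in the same liver. Over all tested transcripts it held the highest or the lowest value for 38.2%, with the 2 sides counted together. Of 15 other CAR and PXR targets, 12 were highest there, and their summed level was 896 and 845 FPKM in sudachitin ZT18 livers, 935 and 1170.2 FPKM in sudachitin ZT6 livers, 1716 and 854 FPKM in control ZT18 livers and 1026 and 971 FPKM in control ZT6 livers. Of 14 male-biased genes that are not members, 11 were lowest there, with sums of 4959 and 3509 FPKM in sudachitin ZT18 livers, 3696 and 1822 FPKM in sudachitin ZT6 livers, 1454 and 3099 FPKM in control ZT18 livers and 2723 and 3873 FPKM in control ZT6 livers. Mup20 alone made up 1312 FPKM of the sum in this liver and 1339.5 to 3765 FPKM in the others. Of 5 tested female-biased genes outside the family, 3 were highest there, while the defining female genes Sult2a1, Sult3a1 and A1bg were near 0 in every library. Sult2a1 and Sult3a1 had no count in this liver, and A1bg had its highest level in it, at 0.0741 FPKM. Nr1i3, at 38.6 FPKM, and Nr1i2, at 12.2 FPKM, lay inside the range of the other livers. Summed acute-phase genes were 5086 FPKM there and between 3530 and 6687 FPKM in the others, and summed Kupffer cell markers 27.5 FPKM against 15.1 to 41.6 FPKM. Summed cholangiocyte markers were highest there, at 24.3 FPKM against 5.94 to 17.8 FPKM, but Spp1 alone made up 22.9 FPKM of this sum. Summed stellate cell markers were also highest there, at 48.0 FPKM against 33.9 to 44.5 FPKM, and endothelial markers, at 17.3 FPKM against 12.4 to 16.5 FPKM. Taken singly in scaled CPM, only 1 of 5 cholangiocyte, 2 of 6 stellate cell and 3 of 5 endothelial markers were highest there, and none was lowest. The part of any of these in the values of the members was not tested.

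Some members share sequence, and the sources used here do not say how reads with several positions were counted. In windows of 50 bases, Cyp2c69 shared 54.8% of its transcript with another gene, Cyp2c67 52.8%, Cyp2d10 45.6%, Cyp2a5 40.8% and Cyp2a4 38.8%, so their separate levels are uncertain. Cyp2b10 shared 9.69%, Cyp2b9 11.2%, Cyp3a11 14.8% and Cyp2e1 4.82%, while Cyp2c23, Cyp2c70, Cyp2r1 and Cyp3a13 shared none. The libraries carry no strand, and exons of Cyp2a4, Cyp2c55, Cyp2f2 and Cyp2u1 overlap an exon on the opposite strand, by 61, 64, 274 and 545 bases, so reads of the 2 genes cannot be told apart there.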

How the data were processed

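Poly(A) RNA of 8 livers was sequenced without strand information in 150-base pairs, per the labels' protocols. Trimmomatic 0.39, STAR 2.7.2a and HOMER (version not given in the sources used here) are named in the submitters' processing notes, with builds GRCm38 and mm10. The authors deposited estimated counts over exons, per the file headers. Their values move in steps of 0.5, and a trailing 0.5 was rounded up before testing. The authors also deposited FPKM, which is that count divided by exon length and scaled by the library total in the header, per the file headers.

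The main test was edgeR 4.0.16 under R 4.3.3 (TMM factors, default filter by group, quasi-likelihood F test) across all 14506 transcripts, with Benjamini-Hochberg adjusted p-values over all of them and a threshold of 0.05. The comparisons within a time or a treatment and the interaction came from 4 group means, and those over both from additive terms. SE is the log2 difference divided by the square root of F. Scaled CPM used TMM. Alternatives were DESeq2 1.42.0, limma 3.58.1 on log2 FPKM with a pseudocount of 0.1 or 1, other scalings and filters, the groups compared alone, a replicate block and leaving out each library. Scripts were tested on simulated data. Of the 56 members, 55 have the same coordinates in GENCODE M21. The p-values from the 4 group means rest on the spread between the mice of a group. Those over both times or both treatments also count any interaction as spread, since the additive terms leave it out.

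Values in every library are given for members that passed, for the most abundant member of each subfamily at 1 FPKM or more, for the 3 members with the smallest p in each comparison, and for those in which control ZT18 replicate 1 lay outside the others by a factor of 2. Of other gene lists up to 3 genes each are named by smallest p. Members and lists were chosen with earlier results of these data known. Promoter sequences are RefSeq, GRCm38.p6.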

Additional observations from a re-analysis of the deposited data

Results flagged for a closer look

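The day-night difference of Cyp2c40 pointed in opposite directions under the 2 treatments. In sudachitin-treated mice both ZT18 livers lay below both ZT6 livers (0.349 and 0.352 FPKM against 0.550 and 0.579 FPKM), and in control mice both ZT18 livers lay above both ZT6 livers (0.368 and 0.576 FPKM against 0.255 and 0.267 FPKM). The difference itself was tested as the interaction of treatment and time, which was -1.42 on the log2 scale (SE 0.484, edgeR adjusted p = 1) and did not pass. The counts behind it were low, 13.5 to 34.5 per library, and Cyp2c67, Cyp2c68 and Cyp2c69 share 40.0%, 35.6% and 46.3% of their 50-base windows with Cyp2c40.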

How the results depend on the processing

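The counts of called members changed most without a filter on low counts, under which 52 members were tested. How many transcripts were tested in all without that filter is not given here. The counts over all transcripts are therefore not shares, and the total under the main filter does not apply to them. Sudachitin against control gave 2 members at ZT6, 11 at ZT18 and 8 over both times, against 67, 488 and 309 of all transcripts. For ZT18 against ZT6 it gave 4 in sudachitin, 12 in control and 13 over both treatments, against 861, 881 and 1629 of all. The interaction gave 6 members, against 259 of all. The cause was not tested. DESeq2 called 2 members in control and 3 over both treatments between times, against 264 and 950 of all transcripts. Cyp2b10 was not tested under the filter of at least 5 CPM in 2 libraries. That filter left 29 members and called 0 of them between times over both treatments, against 555 of all transcripts. The total of transcripts it left is not given here either. In the same comparison limma on log2 FPKM called 0 members, against 408 of all transcripts with a pseudocount of 0.1 and 392 with 1. Leaving out 1 library gave 0 to 7 called members for treatment at ZT18, 0 to 10 for time in control, 0 to 2 for the interaction and 0 to 2 for time over both treatments. The upper value of each came without control ZT18 replicate 2, which leaves replicate 1 as the lone control ZT18 liver, assumed to vary like the other groups. The replicate block called 1 member for time over both treatments, Cyp2b10 (edgeR adjusted p = 0.018), against 461 of all transcripts. In each other comparison it called 0 members, against 0 to 43 of all transcripts. The numbers do not pair the samples, with correlations of same-numbered deviations between -0.22 and 0.286.

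Without control ZT18 replicate 1 some differences changed sign, and the cause was not tested. Over the libraries left out, the log2 difference ran between -0.19 and 5.40 for Cyp2a4, -0.13 and 5.77 for Cyp2b9, -1.28 and 0.01 for Cyp2c23, -0.21 and 1.52 for Cyp3a11 and -0.07 and 1.76 for Cyp3a59 between times in control. For treatment at ZT18 it ran between -4.85 and 0.72 for Cyp2a4 and between -1.74 and 0.91 for Cyp2b10. Over both times it ran between -3.16 and 0.21 for Cyp2a4, between -0.17 and 0.03 for Cyb5b and between -3.81 and 0.17 for Gsta1.

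Cyp2b10 was called with median-of-ratios factors (adjusted p = 0.033), total counts (adjusted p = 0.036) and no filter (adjusted p = 1.2e-09), but not by limma with a pseudocount of 0.1 (adjusted p = 0.075) or 1 (adjusted p = 0.18). Counts under about 10 per library limit what can be seen for Cyp2b10 and Cyp2c69.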

Other observations

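Outside the CYP2 and CYP3 families, 28 other P450 genes were tested, and 1 of them passed between ZT18 and ZT6 over both treatments. It was Cyp7a1, the rate-limiting enzyme of bile acid synthesis, which is named after its values were seen. It was at 15.3 and 12.7 FPKM in sudachitin ZT18 livers, 3.66 and 2.47 FPKM in sudachitin ZT6 livers, 5.74 and 11.3 FPKM in control ZT18 livers and 3.73 and 1.59 FPKM in control ZT6 livers. All 4 ZT18 livers lay above all 4 ZT6 livers, and the log2 difference was 2.0 (SE 0.316, edgeR adjusted p = 0.012), or 2.22 without control ZT18 replicate 1. The call was lost without sudachitin ZT6 replicate 1 (edgeR adjusted p = 0.052). The female-predominant genes Cyp3a41a and Cyp3a41b were listed at 0 in every library, control ZT18 replicate 1 included.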
